A study of Saccharomyces cerevisiae YPS1009 with 18 samples.

Results

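The genes described here encode the machinery that brings proteins into yeast mitochondria and folds them there. They were chosen by name, from the TOM, TIM, PAM and SAM families together with MDM10, MIA40, ERV1, the peptidases MAS1, MAS2 and OCT1, and the chaperones SSC1, MGE1, MDJ1, HSP60 and HSP10. Of 38 listed genes, 32 had 1 plasmid each among the 4872 plasmids of the count table, and all 32 were among the 4508 plasmids with enough counts to test. TOM20, TIM8, TIM9, TIM10, TIM23 and TIM50 were not analysed here. The rule uses gene names and no measured value, though the genes were chosen with earlier results of these data known.

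The screen asked which genes, given in extra copy, change how well cells of a wild oak-soil yeast come through long culture, and whether an extra chromosome alters the answer. Each plasmid of the MoBY library is a low-copy plasmid that carries 1 yeast gene with its own flanking DNA and a barcode, so that barcode reads count the plasmid in a pool. All samples were haploid MATa ho-Δ1 derivatives of YPS1009. AGY1611 is euploid and carries a NatMX marker in an intergenic region of chromosome XII, whereas AGY1612 (YPS1009_Chr12) carries a duplication of chromosome XII, with that region marked by His3MX6 and NatMX, and is his3-Δ. The methods call both strains dual-marked, and a second AGY1611 marker is not given here. The labels name the strains by number only, and the ploidy comes from the methods and from a header line of the count table. The groups were the starting pool (T0), taken from the frozen library stock without culture, and day 1 and day 28 of growth in YPD with G418, the drug that keeps the plasmid in the cell. Each of these 6 groups held 3 replicates, for 18 samples. Before the cultured samples were read, cells were plated on YPD with G418 and the regrown lawn was scraped, so reads from both days come only from cells that could divide again. The chromosomal copies of all the genes remained in place, so each plasmid adds copies. Each ploidy is represented by 1 strain, and AGY1612 differs from AGY1611 in its listed markers and in his3-Δ as well as in chromosome XII.

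Almost all mitochondrial proteins are made in the cytosol and imported. The TOM complex of the outer membrane is the common entry gate. SAM inserts barrel proteins into the outer membrane, the small TIM chaperones ferry hydrophobic precursors across the intermembrane space, and the MIA pathway traps proteins there by oxidizing them. TIM22 inserts carrier proteins into the inner membrane, and TIM23 with its import motor, built around the Hsp70 Ssc1, pulls precursors into the matrix. Peptidases then trim the targeting sequence and the Hsp60 chaperonin folds the product. Many of these genes are required for growth in yeast.

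The libraries held 3491412 to 6298768 barcode counts at T0, 904993 to 1925967 at day 1 and 503569 to 1338206 at day 28. Values are given as CPM, the share of a library scaled to a common total, after TMM scaling, and all limits drawn from low counts cover counting error only, since PCR reads are not independent molecules. Replicates lay close together at T0 and far apart afterwards: the median coefficient of variation of the 32 plasmids was 4.30% in AGY1611 and 6.09% in AGY1612 at T0, and from 47.3% to 62.6% in the cultures, against 3.96% and 5.72% and from 49.1% to 55.4% over all tested plasmids. At T0 no member was at 0 in any library, and neither edgeR (0% of all plasmids) nor DESeq2 called a member between the strains. No member had an unadjusted p under 0.05 there, nor did any other of the 4508 tested. The spread in this fit was shared with the scattered cultures, so small p-values were unlikely, and their absence does not show equal starting pools. A fit of the T0 libraries alone also called no plasmid. The fitted member differences at T0 (AGY1612 minus AGY1611) ran from -0.64 to 0.36 on the log2 scale. Members took 0.645% to 0.69% of counts at T0 and up to 1.00% later. The T0 values of a few members stood apart in single libraries, with TIM13 at 393 CPM and TIM22 at 182 CPM in AGY1612 replicate 1, against 168 and 171 CPM and 80.4 and 81.0 CPM in the other replicates. The methods give biological triplicates for the cultures, but not which of them share a transformation or stock, so p-values measure the spread between these samples. The T0 libraries were taken without culture, so their spread holds no variation between cultures, although they enter every test against T0.

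Over 28 days in AGY1612, the plasmids carrying TIM12, SAM50, MAS1 and TIM54 rose and those carrying TOM40, PAM16 and SSC1 fell. These are 7 of 32 members (21.9%) past a false discovery rate (FDR, the Benjamini-Hochberg adjusted p of edgeR's quasi-likelihood test) below 0.1, against 19.9% of all plasmids, so the share of members called was near the background. The 4 rises and 3 falls compare with 6.99% and 12.9% of all plasmids. In AGY1611, TIM12, TIM44 and SAM35 rose and TOM40 and OCT1 fell, which are 5 of 32 members (15.6%) against 14.6% of all plasmids, with rises in 5.12% and falls in 9.49% of the library. TIM12 and TOM40 were called in both strains, and 10 of the 32 members in at least 1. Over all 4508 tested plasmids, 381 were called in both strains and 1176 in at least 1. A rise means that a plasmid took a larger part of the pool, and more cells with a plasmid cannot be told apart from more plasmid copies per cell.

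**Figure D1:**
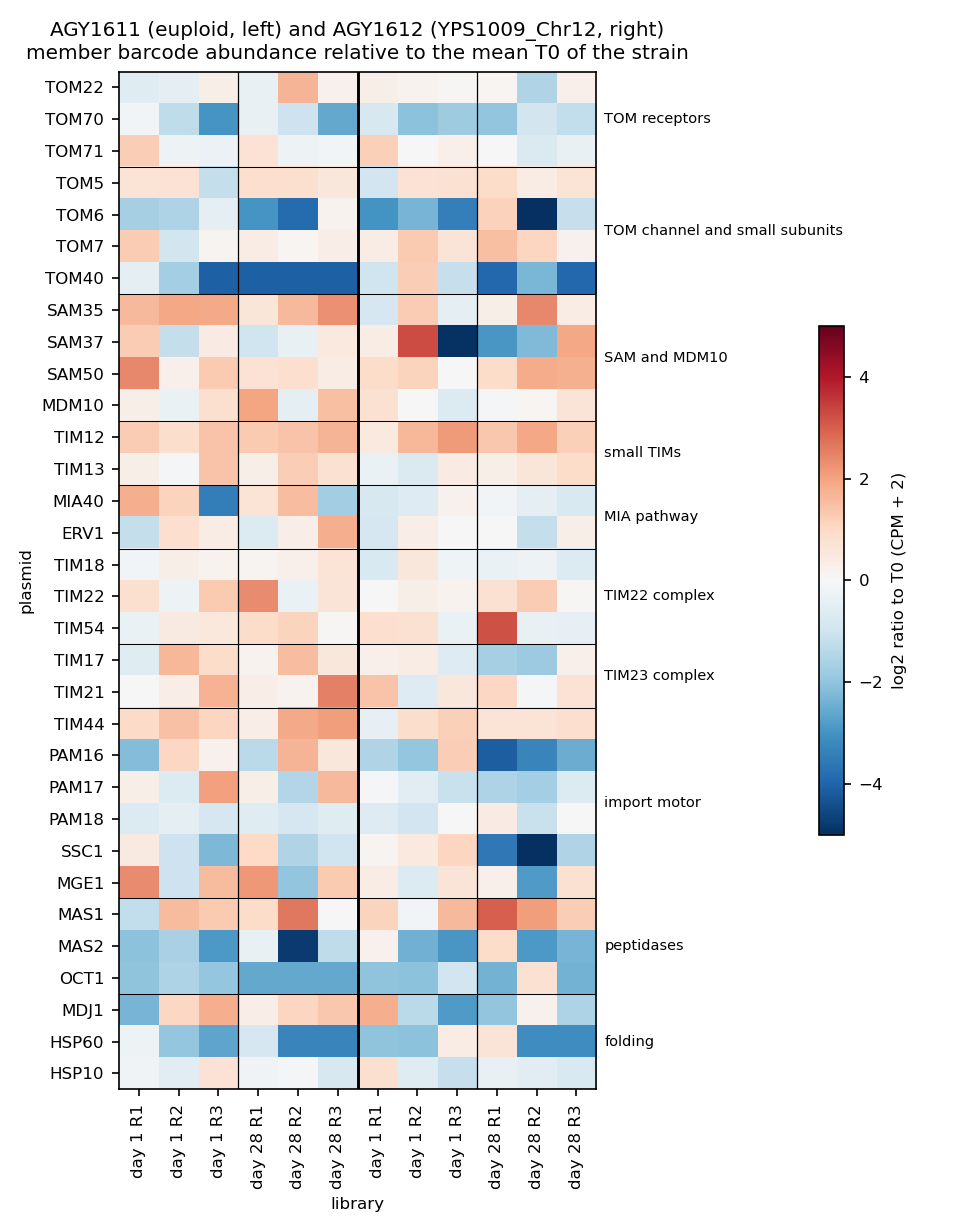
Each cell shows 1 library's log2 ratio of CPM (with 2 added) to the mean T0 of the same strain, for the 32 member plasmids in rows grouped by role and the day 1 and day 28 libraries in columns, AGY1611 on the left and AGY1612 on the right; values past the ends of the scale take the end colour. TIM12 was above T0 in every cultured library, whereas PAM16 was lowest in the 3 AGY1612 libraries of day 28.

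The median log2(fold change) of the 32 members at day 28 was -0.18 in AGY1612 and 0.71 in AGY1611, beside 0.19 and 0.16 over all plasmids. With RLE scaling the member medians were -0.30 and 0.54, beside 0.03 and -0.02 over all plasmids, and with total counts they were -0.43 and 0.41, beside -0.11 and -0.14. In AGY1612 the sign rested on 1 library, since the median was 0.36 without day 28 replicate 2, and it was -0.10 without replicate 3. With TMM scaling, 13 members had positive values in both strains, 9 had negative values in both, 9 were negative in AGY1612 only and 1 was negative in AGY1611 only. The 9 members make up 28.1% of the 32, while 12.4% of all tested plasmids were negative in AGY1612 only. Groups without overlap between day 28 and T0 were found for 7 members above and 8 below in AGY1612 (21.1% and 27.3% of all plasmids) and for 12 above and 7 below in AGY1611 (20.8% and 25.4%).

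**Figure D2:**
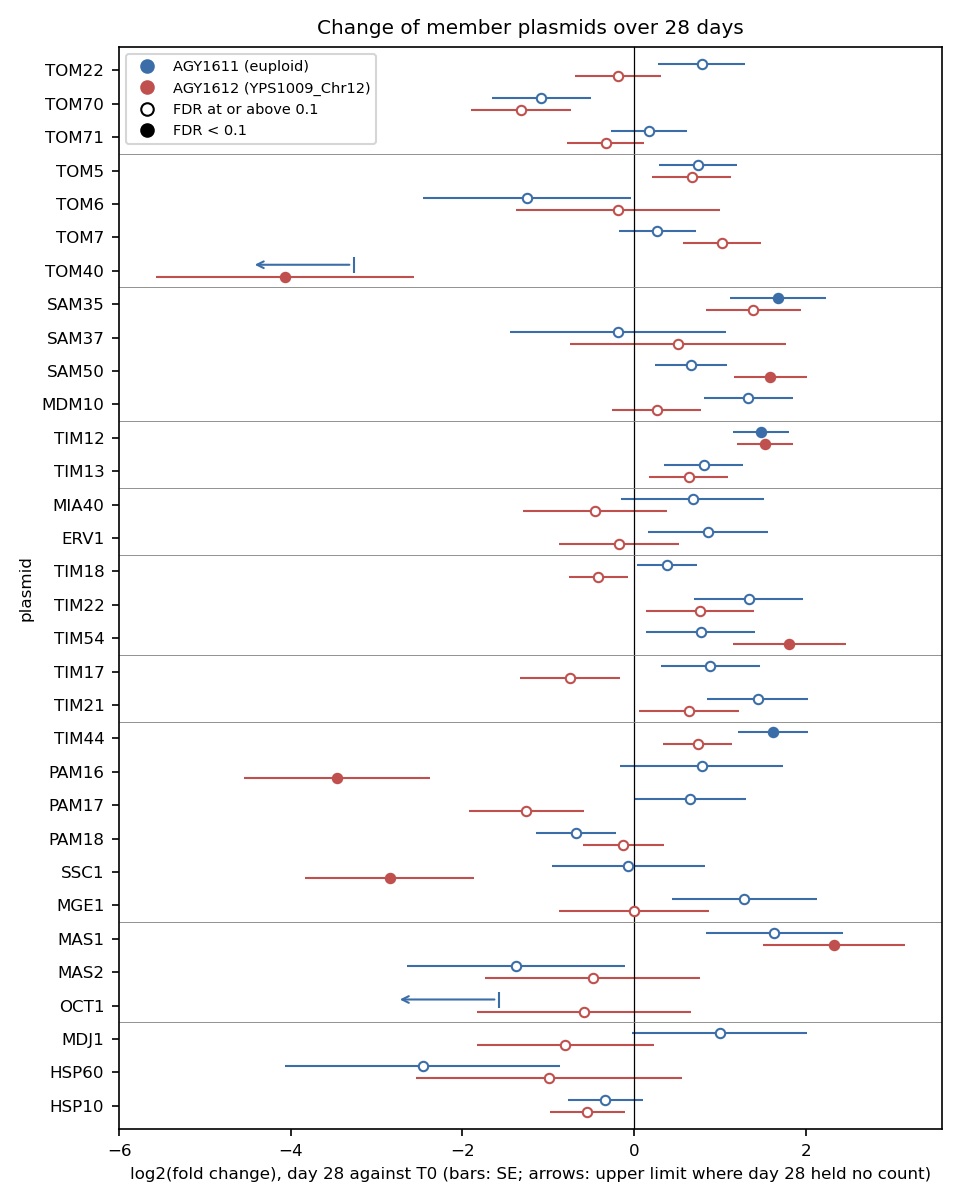
Points give the log2(fold change) of day 28 against T0 from edgeR with its SE (bars, n = 3 per group) for each member plasmid, filled where FDR was below 0.1; the arrows for TOM40 and OCT1 in AGY1611 start at an upper limit, since day 28 held no count in any of the 3 libraries, and both passed FDR < 0.1. The import motor plasmids PAM16 and SSC1 lay far to the left in AGY1612, while their AGY1611 values were 0.79 and -0.07.

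TOM40 (YMR203W), which encodes the channel of the outer membrane gate, fell in the cultures of both strains. Its plasmid stood at 33.8, 29.6 and 31.8 CPM in the T0 replicates of AGY1611, at 23.0, 8.46 and 0 CPM at day 1, and at 0 in all 3 libraries of day 28. The same plasmid in AGY1612 stood at 20.8, 35.8 and 29.7 CPM at T0, at 13.2, 69.6 and 12.03 CPM at day 1, and at 0, 4.37 and 0 CPM at day 28. Day 28 did not overlap with T0 in either strain. In AGY1611 the plasmid was at least 9.63-fold lower at day 28 than at T0 (FDR 0.0157), taking 3 counts per library as the floor, and 2.55% of all plasmids were at 0 in the same 3 libraries. In AGY1612 the log2(fold change) was -4.06 ± 1.50 (SE, FDR 0.0780). That call was lost when any of the compared libraries other than day 28 replicate 2 was left out, with FDR from 0.129 to 0.171. Without 1 T0 replicate of AGY1612, calls over all plasmids also dropped. They went from 315 up and 583 down to between 98 and 109 up and between 393 and 405 down, so losses without a T0 replicate were not particular to single members.

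No other TOM plasmid passed the test. TOM5, TOM6 and TOM7 encode small subunits that help assemble the gate, and their log2(fold change) at day 28 was 0.67, -0.19 and 1.03 in AGY1612 and 0.75, -1.25 and 0.27 in AGY1611. The TOM6 value in AGY1612 came from scattered libraries, with log2 ratios to the mean T0 of 1.13, -5.43 and -1.15. With limma voom TOM6 was called lower there (-2.64, FDR 0.0923), and TOM7 was called higher (0.86, FDR 0.0871). TOM22, TOM70 and TOM71 encode receptors that bind precursors in the cytosol, and TOM71 is a paralog of TOM70. Among them TOM70 had the most negative values, -1.32 ± 0.58 in AGY1612 (FDR 0.142) and -1.08 ± 0.58 in AGY1611 (FDR 0.257). It was lower than T0 in all 3 replicates of both strains, at 105, 219 and 178 CPM at day 28 in AGY1612 against 401 to 431 CPM at T0. TOM70 passed the threshold in AGY1612 under 5 other settings, DESeq2 among them (FDR 0.0650).

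All 4 plasmids of the SAM group had positive values at day 28 in AGY1612 and 3 of 4 in AGY1611, with 1 rise past the test in each strain. Most plasmids of the library were positive too, since 43.7% of all plasmids in AGY1612 and 43.9% in AGY1611 had negative values. SAM50 (YNL026W) encodes the barrel protein at the core of SAM. It stood at 232, 251 and 258 CPM in the T0 replicates of AGY1612, at 465, 540.1 and 249 CPM at day 1 and at 474, 905 and 842 CPM at day 28. All day 28 values were above all T0 values, and the plasmid rose by a log2(fold change) of 1.59 ± 0.43 (FDR 0.0189). In AGY1611 SAM50 stood at 243, 266 and 255 CPM at T0, at 1366, 308 and 627 CPM at day 1 and at 421, 454 and 332 CPM at day 28. The day 28 change in AGY1611 was 0.66 ± 0.42 (FDR 0.348), again with no overlap with T0.

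SAM35 (YHR083W) encodes a subunit that recognizes the sorting signal of barrel precursors. In AGY1611 it went from 179, 205 and 194 CPM at T0 to 602, 737 and 729.9 CPM at day 1 and 295, 600.1 and 955 CPM at day 28. Each cultured library was above each T0 library, and the plasmid rose at day 28 (1.68 ± 0.56, FDR 0.0611). AGY1612 held it at 178, 191 and 193 CPM at T0, at 104, 458 and 138 CPM at day 1 and at 232, 990.2 and 243 CPM at day 28, which gave 1.39 ± 0.55 with an FDR that lay just above the threshold. The AGY1611 call was lost without any 1 of the T0 replicates or without day 28 replicate 3, with FDR from 0.154 to 0.185. Without 1 T0 replicate of AGY1611, calls over all plasmids also dropped. They went from 231 up and 428 down to between 48 and 57 up and between 269 and 280 down. SAM37, a peripheral SAM subunit, scattered widely (0.51 ± 1.26 in AGY1612 and -0.19 ± 1.26 in AGY1611), and MDM10, which serves SAM and the tether between mitochondria and the endoplasmic reticulum, had 0.26 and 1.33, with no call.

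TIM12 (YBR091C) was above T0 in every culture. It encodes a small TIM protein bound to the TIM22 complex, where hydrophobic carrier precursors dock. In AGY1611 its plasmid stood at 470.2, 463 and 449 CPM at T0, at 1121, 856 and 1255 CPM at day 1, and at 1155, 1229 and 1482 CPM at day 28. The AGY1612 libraries held 452, 495 and 468 CPM at T0, 659, 1508 and 2080.4 CPM at day 1, and 1197, 1794 and 1074 CPM at day 28. All cultured libraries of both strains were above all libraries of T0. The log2(fold change) at day 28 was 1.48 ± 0.33 in AGY1611 (FDR 0.00649) and 1.52 ± 0.33 in AGY1612 (FDR 0.00543), and the difference between strains was 0.04 ± 0.45. Both calls held under every alternative setting and with every library left out in turn.

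The other measured small TIM, TIM13, whose product chaperones precursors together with Tim8, had 0.81 in AGY1611 and 0.64 in AGY1612, with no call. MIA40 encodes the oxidoreductase that traps cysteine-rich proteins in the intermembrane space, and ERV1 the oxidase that recharges it. Their values were 0.68 and 0.87 in AGY1611 and -0.45 and -0.17 in AGY1612, and neither was called.

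Of the TIM22 complex, TIM54 (YJL054W), which encodes a subunit facing the intermembrane space, passed the test in AGY1612 through a single library. It stood at 210.3, 221 and 235 CPM at T0, at 404, 382 and 175 CPM at day 1, and at 2014, 170.3 and 165 CPM at day 28. Only replicate 1 of day 28 was above T0, and the other two were below it. The log2(fold change) was 1.81 ± 0.66 (FDR 0.0697), and without day 28 replicate 1 it was -0.28 (FDR 0.701). It was also lost without any 1 of the T0 replicates, with FDR from 0.163 to 0.184. In AGY1611, TIM54 stood at 224, 234 and 226 CPM at T0, at 180.4, 313 and 328 CPM at day 1, and at 435, 495 and 239 CPM at day 28 (0.77 ± 0.64, FDR 0.480). TIM22, the channel subunit, had 0.77 and 1.33 in AGY1612 and AGY1611, and TIM18, another membrane subunit, had -0.41 and 0.38, all without a call.

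The measured members of the TIM23 translocase were TIM17, a core subunit of the channel, and TIM21, which links it to TOM. TIM17 had -0.74 ± 0.58 in AGY1612 and 0.89 ± 0.58 in AGY1611, while TIM21 had 0.64 and 1.44. Neither passed the test in either strain.

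In the import motor, which comprised TIM44, PAM16, PAM17, PAM18, SSC1 and MGE1, PAM16 and PAM17 had values of opposite sign in the strains at day 28. The median of the 6 plasmids was -0.69 in AGY1612, where 2 fell and none rose, and 0.72 in AGY1611, where 1 rose and none fell. PAM16 (YJL104W) encodes a J-like protein that holds back the J protein Pam18. In AGY1612 it stood at 65.5, 66.0 and 76.1 CPM at T0, at 23.2, 16.7 and 164 CPM at day 1, and at 2.05, 5.24 and 10.8 CPM at day 28, which rested on 1, 6 and 10 counts. All 3 day 28 libraries were below all T0 and day 1 libraries, and the log2(fold change) against T0 was -3.46 ± 1.08 (FDR 0.0373). AGY1611 held it at 64.5, 66.9 and 69.9 CPM at T0, at 13.4, 138 and 78.5 CPM at day 1 and at 25.3, 222 and 99.9 CPM at day 28, on both sides of T0 (0.79 ± 0.95, FDR 0.651). The AGY1612 call narrowly missed the threshold without day 28 replicate 1 (FDR 0.103) or replicate 2 (FDR 0.111).

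SSC1 (YJR045C) encodes the matrix Hsp70 that drives the motor and also folds proteins. In AGY1612 its plasmid lay above T0 at day 1 (0.62 ± 0.90, not called) and fell by day 28. It stood at 134, 152 and 150.4 CPM at T0, at 162, 204 and 306 CPM at day 1, and at 10.3, 0 and 49.7 CPM at day 28 (5, 0 and 46 counts). The groups of day 28 and T0 did not overlap (-2.85 ± 0.98, FDR 0.0577). In AGY1611 it stood at 154, 171 and 153 CPM at T0, at 218, 76.1 and 32.1 CPM at day 1 and at 323, 54.5 and 78.7 CPM at day 28, with a change of -0.07 ± 0.89 (FDR 0.973). The AGY1612 call was lost without any 1 of the T0 replicates or without day 28 replicate 1 or 2, with FDR from 0.109 to 0.156.

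TIM44 (YIL022W) encodes the scaffold that tethers Ssc1 to the channel, and it was the motor plasmid that rose in AGY1611. It went from 288, 298 and 299 CPM at T0 to 579.7, 812 and 631 CPM at day 1 and 373, 1096 and 1252 CPM at day 28, all above T0 (1.62 ± 0.40, FDR 0.0153). In AGY1612 it stood at 285, 308 and 313 CPM at T0, at 224, 557 and 687 CPM at day 1, and at 484, 487 and 542 CPM at day 28. These day 28 values were also above all T0 values, and the change was 0.74 ± 0.40 (FDR 0.237). PAM17, which helps organize the motor, had -1.25 ± 0.67 in AGY1612 and 0.65 ± 0.65 in AGY1611. MGE1, the nucleotide exchange factor of Ssc1, had 0.00 ± 0.87 and 1.28 ± 0.84.

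**Figure D3:**
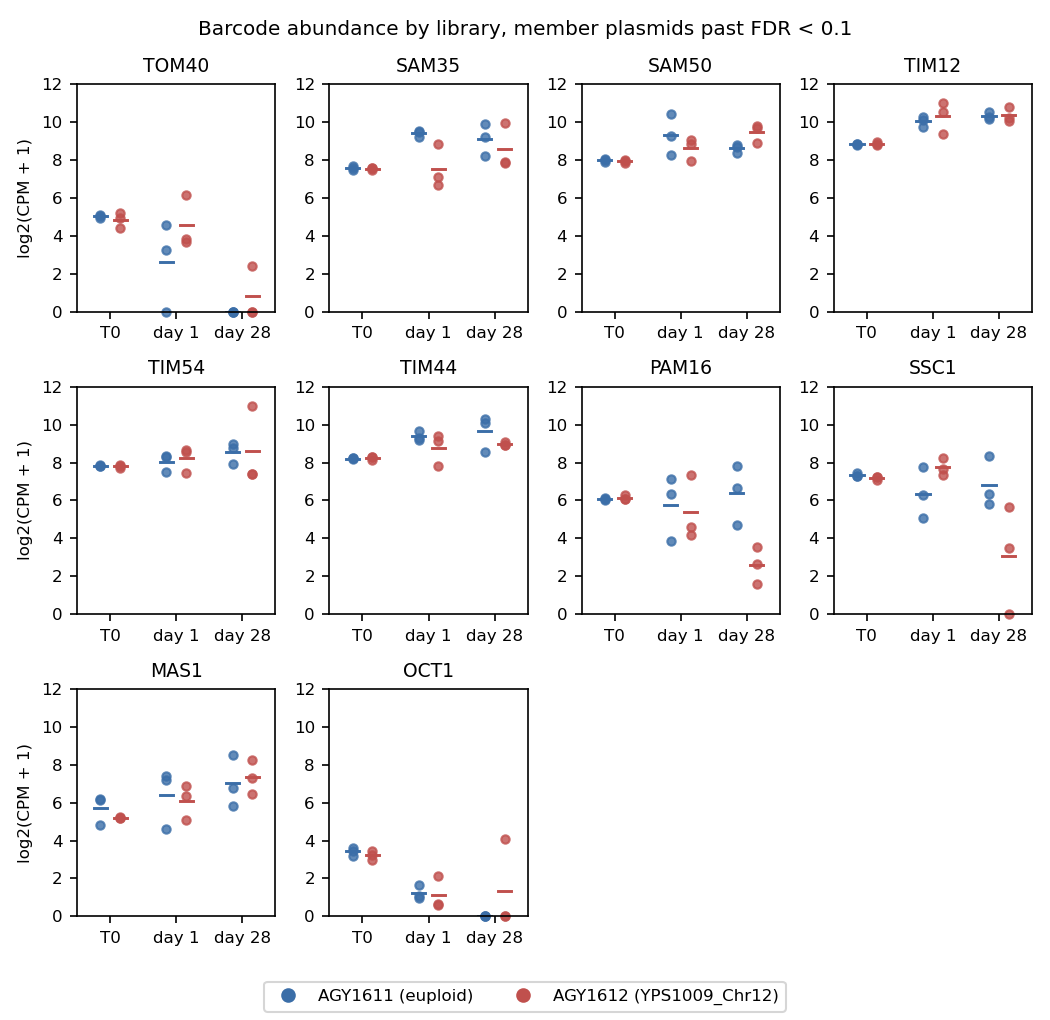
Each point is 1 library's log2(CPM + 1) and each bar the mean of the 3 replicates, for the 10 member plasmids past FDR < 0.1 in at least 1 comparison, in AGY1611 (blue) and AGY1612 (red). The T0 points coincide for most plasmids, TIM12 lies above T0 at both days in both strains, and the TIM54 rise in AGY1612 is carried by 1 point.

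Among the peptidase plasmids, MAS1 rose in AGY1612 and OCT1 fell in AGY1611. MAS1 and MAS2 encode the subunits of the peptidase that removes targeting sequences in the matrix. MAS1 (YLR163C) stood at 36.9, 36.0 and 35.6 CPM in the T0 replicates of AGY1612, at 80.6, 32.4 and 116 CPM at day 1, and at 302, 159.8 and 86.5 CPM at day 28. All day 28 values were above all T0 values (2.33 ± 0.82, FDR 0.0627). In AGY1611 it stood at 72.4, 27.5 and 69.5 CPM at T0, where replicate 2 was well below the others, at 23.0, 171 and 144 CPM at day 1, and at 108, 362 and 56.0 CPM at day 28, which overlapped with T0 (1.64 ± 0.80, FDR 0.213). The AGY1612 call was lost without any 1 of the T0 replicates or without day 28 replicate 1 (FDR from 0.149 to 0.172), and with limma voom the FDR was 0.286. The partner MAS2 had -0.48 in AGY1612 and -1.38 in AGY1611 and was not called. Every cultured AGY1611 library of MAS2 lay below the mean T0, and limma voom called it lower there at day 28 (-2.89, FDR 0.0919). In AGY1612 its day 28 libraries lay on both sides of the mean T0.

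OCT1 (YKL134C), which encodes a peptidase that trims a further stretch from some precursors, was scarce from the start. In AGY1611 it stood at 10.0, 11.2 and 8.23 CPM at T0, at 0.960, 2.11 and 1.11 CPM at day 1, and at 0 in all 3 libraries of day 28. It was at least 2.98-fold lower at day 28 than at T0 (FDR 0.0358). The plasmid in AGY1612 stood at 6.94, 9.83 and 8.49 CPM at T0, at 0.552, 0.540 and 3.44 CPM at day 1, and at 0, 15.7 and 0 CPM at day 28. Replicate 2 alone, with 18 counts, lay above T0 there, and the change was -0.59 ± 1.25 (FDR 0.791). Without that library, OCT1 passed the test as lower in AGY1612 as well (FDR 0.0594).

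None of the 3 folding plasmids passed the test. MDJ1, which encodes the J protein that works with Ssc1 in folding, had -0.80 in AGY1612 and 1.00 in AGY1611, and HSP10, the lid of the chaperonin, had -0.55 and -0.33. HSP60 (YLR259C), the chaperonin itself, was scarce. Its plasmid stood at 19.8, 16.5 and 16.3 CPM at T0 in AGY1611, at 14.4, 3.17 and 1.11 CPM at day 1, and at 9.03, 0 and 0 CPM at day 28. In AGY1612 it stood at 13.7, 14.6 and 16.8 CPM at T0, at 2.21, 2.16 and 19.8 CPM at day 1, and at 24.6, 0 and 0 CPM at day 28. In each strain 1 replicate kept the plasmid and the other two held no count, and the changes were -2.46 ± 1.61 (FDR 0.361) and -0.99 ± 1.55 (FDR 0.710). Without the library that kept it, day 28 replicate 1 in both strains, HSP60 passed the test as lower in AGY1611 (FDR 0.0693) and in AGY1612 (FDR 0.0594). With limma voom it was called lower in both with all libraries (FDR 0.0412 and 0.0467).

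PAM18, MAS1 and HSP60 lie on chromosome XII, which AGY1612 already carries in extra copy. PAM18 (YLR008C) encodes the J protein that stimulates Ssc1 at the channel. It stood at 204, 197 and 205 CPM at T0 in AGY1611, at 125, 144 and 112 CPM at day 1 and at 134, 112 and 133 CPM at day 28, below T0 in every cultured library (-0.68 ± 0.47, FDR 0.394). The AGY1612 replicates had 206, 207 and 213 CPM at T0, 133, 107 and 205 CPM at day 1 and 277, 94.3 and 205 CPM at day 28, on both sides of T0 (-0.12 ± 0.47, FDR 0.885). The difference between strains in the day 28 change was 0.55 ± 0.66 for PAM18, 0.69 ± 1.11 for MAS1 and 1.47 ± 2.19 for HSP60, each less than its SE, and none was called.

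By day 1 a single member, TIM12, had passed the test, and only in AGY1612 (1.59 ± 0.33, FDR 0.0610, against 2.86% of all plasmids called). The call was lost without any 1 of the T0 replicates, with FDR from 0.211 to 0.228, when no plasmid of the library was called. In AGY1611, where 0.288% of all plasmids were called, no member was called, and 4 had an unadjusted p under 0.05 (16.5% of all plasmids): TIM12 (1.23 ± 0.33, FDR 0.129), SAM50 (1.59 ± 0.43, FDR 0.129), SAM35 (1.84 ± 0.56, FDR 0.145) and TIM44 (1.19 ± 0.40, FDR 0.185). DESeq2 and limma voom called all 4 of these as higher, among 150 and 183 plasmids that they called higher in AGY1611. In AGY1612 both methods called TIM12 as higher. There DESeq2 also called TOM6 (-3.18, FDR 0.0544) and TOM70 (-1.56, FDR 0.0765) as lower. With limma voom TOM6 (-3.11, FDR 0.0977), TOM70 (-1.52, FDR 0.0439) and OCT1 (-2.61, FDR 0.0887) were called lower in AGY1612. The day 1 strain difference was not called for any member (0% of all plasmids), by edgeR or DESeq2, and no member had an unadjusted p under 0.05. For TIM12 it was 0.36 ± 0.45.

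Between day 1 and day 28 the main fit, which did not pair libraries, called no member in AGY1612 (1.53% of all plasmids) or in AGY1611 (0.954%), with unadjusted p under 0.05 for 4 and 2 members, beside 11.4% and 9.52% of all plasmids. In AGY1612 3 of the 4 values were negative and that of TOM6 was positive (2.87 ± 1.29, FDR 0.387), with 8.83, 15.1 and 6.02 CPM at day 1 and 187, 0 and 36.8 CPM at day 28. SSC1 went from 162 to 306 CPM at day 1 to 49.7 CPM or less at day 28 (-3.47 ± 1.01, FDR 0.118), PAM16 had -3.43 ± 1.08 (FDR 0.155) and TOM40 -4.20 ± 1.51 (FDR 0.253). With the replicate number as a block within each strain, which pairs the day 1 and day 28 libraries of a culture, SSC1 passed the threshold (-4.01, FDR 0.0368). DESeq2 called SSC1, PAM16 and TOM40 in AGY1612, and TOM40 in AGY1611. Over all plasmids DESeq2 called 51 up and 167 down in AGY1612 and 9 and 141 in AGY1611. Neither limma voom nor a fit of the day 1 and day 28 libraries alone called a member in either strain. Over all plasmids, limma voom called 2 up and 8 down in AGY1612. The fit of the cultured libraries alone called 3 and 5 there, and both called no plasmid in AGY1611.

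**Figure D4:**
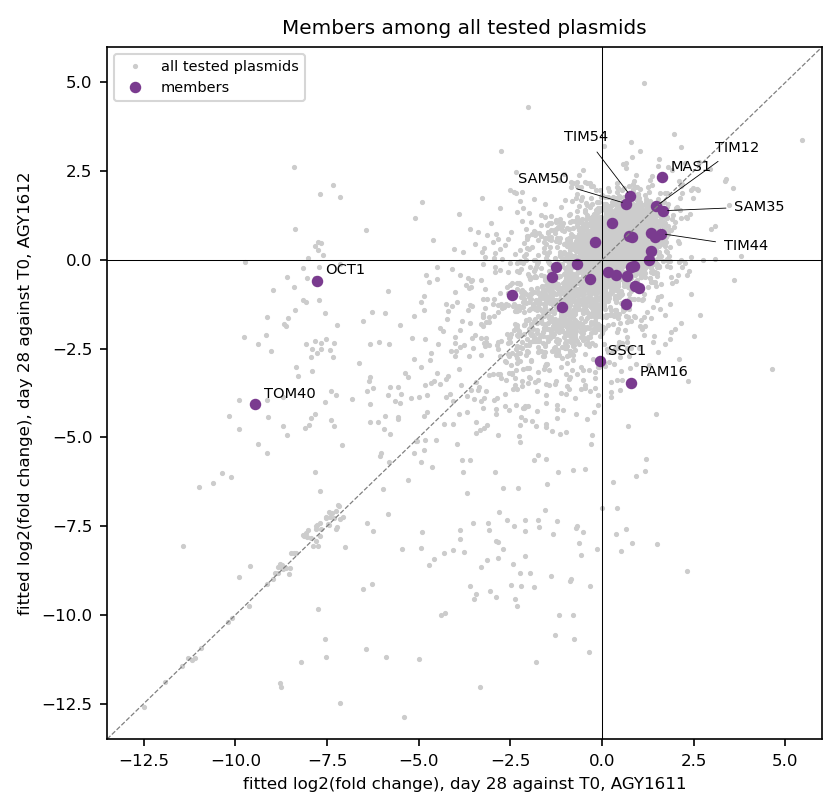
Each point is 1 plasmid, with the fitted log2(fold change) of day 28 against T0 in AGY1611 on the horizontal axis and in AGY1612 on the vertical axis; members are purple and the dashed line marks equal values. PAM16 and SSC1 lie below the line and OCT1 and TOM40 above it, where the fitted AGY1611 values of the latter pair come from 0 counts and give no size.

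The strains were compared directly by the difference between their changes from T0. At day 28 no member passed the test (0.266% of all plasmids were called), and DESeq2 called none either; 3 members had an unadjusted p under 0.05, as did 6.94% of all plasmids. PAM16 had the lowest p, with a difference (AGY1612 minus AGY1611) of -4.24 ± 1.43 on the log2 scale (FDR 0.429). For OCT1 the difference ran the other way (FDR 0.572), and it rested on 1 AGY1612 library. With AGY1611 at the floor and the uncertain AGY1612 estimate taken at face value, it was 0.99 on the log2 scale. SSC1 came next, at -2.78 ± 1.31 (FDR 0.688). Of the 6 motor plasmids, 5 had a lower value in AGY1612, with a median difference of -1.59, while the 3 peptidase plasmids had positive fitted differences. Over all members the median difference was -0.26 (-0.40 with TOM40 and OCT1 at their bounds), beside -0.02 over all plasmids, and 20 of 32 differences were negative (62.5%, against 51% of all plasmids). That median moved with single libraries: it was -0.07, -0.16 and -0.15 without day 28 replicate 1, 2 or 3 of AGY1611, -0.14 without T0 replicate 1 of AGY1612 and -0.82 without day 28 replicate 1 of AGY1612. The sign for TOM40 is not settled, since AGY1611 held no count at day 28. TIM18 is named here after its values were seen: its 3 day 28 libraries were all below T0 in AGY1612 (306, 326 and 240.1 CPM against 369 to 415) and all above T0 in AGY1611 (431, 469 and 633 CPM against 374 to 400.1), with a difference of -0.80 ± 0.49 (FDR 0.866).

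From day 1 to day 28 the strain difference was likewise not called for any member (0.222% of all plasmids) by edgeR or DESeq2, and 4 had an unadjusted p under 0.05 (8.07% of all plasmids). The values with the lowest p were those of SSC1 (-3.96 ± 1.33, FDR 0.388), SAM50 (1.76 ± 0.60, FDR 0.390) and PAM16 (-4.02 ± 1.43, FDR 0.445). SAM50 thus had a value of 0.83 ± 0.42 in AGY1612 and -0.93 ± 0.42 in AGY1611 over the same interval, neither of which passed the test.

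Of the plasmids in the lowest of 5 equal groups by T0 level, 17.5% fell in AGY1612 and 15.9% in AGY1611, against 12.9% and 9.49% of all plasmids. In the highest group 16.4% and 10.9% fell, and in the second lowest, where falls were fewest, 8.10% and 5.77%. The lowest group held 6 members, among them TOM40, OCT1, HSP60 and MAS1, of which MAS1 rose in AGY1612. PAM16 and SSC1, which fell in AGY1612, lay above it, at percentiles 22.2 and 42.7 of the T0 level. The part of the starting level in the calls was not tested.

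Related plasmids for mitochondrial chaperones, proteases and membrane insertion were read from a list of 28 further genes, of which 25 were tested. At day 28, 5 were called in AGY1612 (1 up, 4 down) and 6 in AGY1611 (2 up, 4 down), which are 20.0% and 24.0% of the 25, against 19.9% and 14.6% of all plasmids. The list was chosen with earlier results of these data known, so these shares are no independent test of it. SSQ1, a specialized mitochondrial Hsp70 for iron-sulfur cluster assembly that lies on chromosome XII, fell in both strains. It stood at 1002, 1018 and 1026 CPM at T0 in AGY1611, at 197, 311 and 63.0 CPM at day 1 and at 14.5, 0.879 and 19.7 CPM at day 28. The AGY1612 values were 1003, 1036 and 979 CPM, then 124, 134 and 2.58 CPM, then 2.05, 0.873 and 2.16 CPM. The fall was -6.51 ± 0.96 in AGY1611 (FDR 0.000321) and -9.27 ± 1.18 in AGY1612 (FDR 4.84e-05), and the difference between strains was not called (-2.76 ± 1.46, FDR 0.789).

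AFG3, a subunit of the matrix-facing AAA protease of the inner membrane, rose in both strains. It went from 274, 278 and 265 CPM at T0 to 1253, 431 and 1037 CPM at day 1 and 1094, 605 and 719 CPM at day 28 in AGY1611 (1.56 ± 0.43, FDR 0.0246). In AGY1612 it went from 276, 288 and 293 CPM to 219, 918 and 616 CPM and then 2235, 2615 and 1319 CPM (2.85 ± 0.45, FDR 0.000393). The strain difference of 1.28 ± 0.59 was not called (FDR 0.688). ZIM17, which keeps the matrix Hsp70s soluble, went from 29.0, 27.6 and 30.6 CPM at T0 to 9.60, 8.46 and 0 CPM at day 1 and 0, 0.879 and 0 CPM at day 28 in AGY1611 (FDR 0.0256). In AGY1612 it went from 26.5, 20.7 and 29.0 CPM to 4.41, 7.01 and 0 CPM and then to 0 in all 3 libraries, at least 6.34-fold lower than T0 (FDR 0.0136).

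The other related plasmids called at day 28 are named after their values were seen. MDJ2, a J protein of the inner membrane, fell in both strains (-1.74 ± 0.51 in AGY1612, FDR 0.0278, and -1.84 ± 0.51 in AGY1611, FDR 0.0257). The disaggregase HSP78 fell in AGY1612 (-5.63 ± 1.98, FDR 0.0622), with 2.05, 0 and 0 CPM at day 28. In AGY1611 YME1, a protease facing the intermembrane space, fell at least 3.32-fold (FDR 0.0398) and DJP1, a cytosolic J protein, rose (1.61 ± 0.59, FDR 0.0899). The DJP1 call was lost in 7 of 10 alternative settings, with FDR up to 0.181. HSP78 and DJP1 kept their calls under only 1 left-out library each, with FDR up to 0.182 and 0.242, and leaving out day 28 replicate 2 of the strain ended the calls of MDJ2 in AGY1612 (FDR 0.122) and YME1 in AGY1611 (FDR 0.106).

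**Figure D5:**
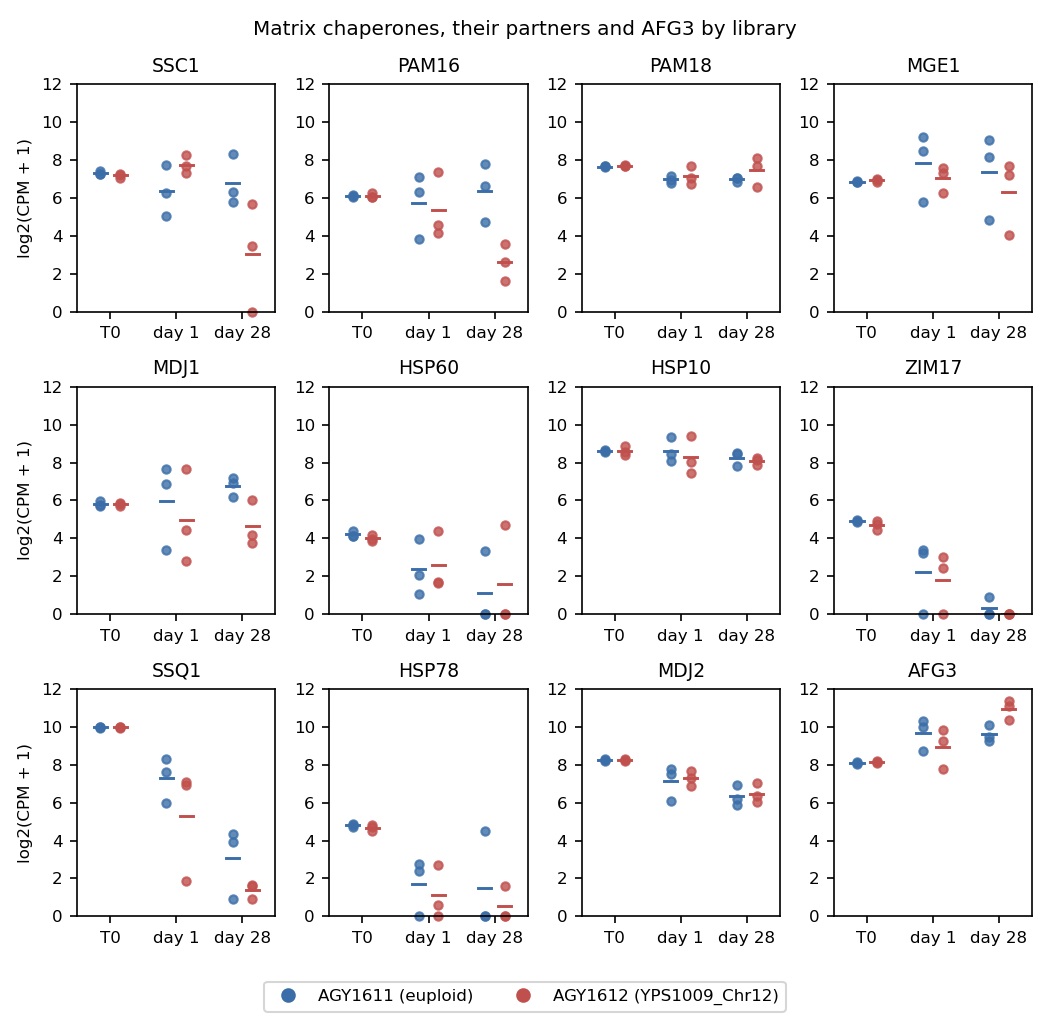
Each point is 1 library's log2(CPM + 1) and each bar the mean of the 3 replicates, for the Hsp70 SSC1 with its partners, the folding plasmids and 5 related plasmids, in AGY1611 (blue) and AGY1612 (red). SSQ1 and ZIM17 drop in both strains, SSC1 and PAM16 are lower at day 28 in AGY1612 than in AGY1611, and AFG3 is highest at day 28 in AGY1612.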

How the data were processed

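Deposited values were the authors' raw barcode read counts, a row for each plasmid and a column for each library. How the reads were counted is not given in the sources used here. The authors normalized with TMM in edgeR for their own analysis, and the deposited counts carry no normalization. Every column was matched to 1 sample by its label. Of 4872 rows, 86 had no count, and 4865 names matched the RefSeq table of the laboratory strain S288C (assembly R64), which gave symbols and chromosomes. No genome was used, so no coordinates or sequences are given.

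Members and lists were chosen with earlier results of these data known. Plasmids with low counts were removed with filterByExpr, and 4508 were tested with edgeR 4.0.16 in R 4.3.3: TMM factors, quasi-likelihood tests, two-sided, 1 coefficient per group, all 18 libraries in 1 fit, and Benjamini-Hochberg adjustment over all tested plasmids at FDR < 0.1. The fit shares 1 spread per plasmid between the close T0 libraries and the scattered cultures. Each SE was taken as the log2(fold change) divided by the square root of the test statistic F. Where a group was at 0 in all its libraries, the fold was computed against a floor of 3 counts per library, averaged over the 3 libraries. Plasmids named in full were the members called in any of 10 comparisons, the 3 members on chromosome XII, the 3 members whose strain difference at day 28 had the lowest p, and the 3 related plasmids with the lowest p at day 28 in AGY1612.

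Day 1 and day 28 libraries of the same number deviated from their group means in the same way (r from 0.150 to 0.507 across plasmids, above 0.1 in all 6 pairs), so they were taken as paired cultures in the replicate blocks. The main fit did not use this pairing, and its SE and FDR values between day 1 and day 28 are unpaired. T0 libraries did not share these deviations (r from -0.0685 to 0.107). Alternatives were FDR < 0.05, RLE factors, total counts, other filters, DESeq2 1.42.0, limma voom (limma 3.58.1) with group weights, replicate blocks, subsets of libraries and each library left out. On simulated data for day 28 against T0 in AGY1612 (4508 plasmids, 5 draws, 200 plasmids changed by 2 on the log2 scale), edgeR recovered a median of 46.7% of changed plasmids, with 7.27% false calls, and 15.2% of changes present in 1 strain only in the strain difference. The simulation gave all libraries of a plasmid the same fitted spread, whereas the real T0 libraries lay much closer together than the cultures. These rates therefore describe the model and may not hold for the real calls.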

Additional observations from a re-analysis of the deposited data

How the results depend on the processing

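The day 28 calls of TIM12 in both strains, SAM50 in AGY1612, and TIM44, TOM40 and OCT1 in AGY1611 held at FDR < 0.1 under every alternative and every left-out library. The count of called members in AGY1612 at day 28 went from 7 to 3 at FDR < 0.05, lay between 6 and 10 under the other settings, and between 3 and 9 with 1 library left out (3 without any 1 of the T0 replicates, 4 without day 28 replicate 1). Over all plasmids the AGY1612 calls went from 315 up and 583 down to 169 and 426 at FDR < 0.05. With limma voom, which called 10 members, they were 463 and 871. In AGY1611 the 5 member calls became 4 to 7, and 4 to 8 with 1 library left out (8 without day 28 replicate 2). Over all plasmids the AGY1611 calls went from 231 up and 428 down to 349 and 723 with limma voom. Without day 28 replicate 2 they were 197 and 285. At day 1 the single AGY1612 member call became 0 at FDR < 0.05, 4 with limma voom and 3 with DESeq2, and 0 to 2 with 1 library left out. Calls over all plasmids there went from 50 up and 79 down to 398 and 527 with limma voom and 142 and 371 with DESeq2. The AGY1611 member count of 0 became 4 with limma voom, 4 with DESeq2 and 2 with AGY1611 fitted alone, and 0 to 4 with 1 library left out. Calls over all plasmids in AGY1611 at day 1 went from 11 up and 2 down to 183 and 175 with limma voom. They were 150 and 183 with DESeq2 and 21 and 0 with AGY1611 fitted alone. From day 1 to day 28 the member count of 0 became 1 in AGY1612 with the replicate block within strain and 3 with DESeq2, and 1 in AGY1611 with DESeq2, and it was 0 to 1 with 1 library left out in each strain. It stayed at 0 in both strains with limma voom and with the day 1 and day 28 libraries fitted alone. The strain differences and the T0 comparison called 0 members in every setting run. At day 28 the replicate block gave 6 calls in AGY1612 and 5 in AGY1611, and the block within strain 7 and 6. Blocking ended the TIM54 call and, within strain, added TOM70 at day 28 in both strains and SSC1 from day 1 to day 28 in AGY1612.

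TIM54 went from -0.28 to 2.45 in AGY1612 as libraries were left out, changing sign without day 28 replicate 1, and its call was lost in 6 of the 9 other settings that gave an adjusted p, which DESeq2 did not. Scaling moved the balance of calls: over all plasmids in AGY1612 at day 28, 315 rose and 583 fell with TMM and 117 rose and 672 fell with total counts (members 4 and 3, then 2 and 4), and in AGY1611 231 rose and 428 fell, then 70 and 485. The cause of these changes was not tested. At day 28, where libraries held 503569 to 1338206 counts, HSP60 in each strain and OCT1 in AGY1612 were counted in single libraries with 10 to 18 counts.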
